A study of Mus musculus with 2 samples.

Results

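The Gimap genes encode the GTPases of immunity-associated proteins, a family of 8 mouse genes considered here: Gimap1, Gimap3, Gimap4, Gimap5, Gimap6, Gimap7, Gimap8 and Gimap9. They were chosen by name, as every gene whose symbol starts with Gimap among array probes that the platform annotation pairs with 1 gene symbol. Of 19057 genes with such a probe, 7 were Gimap genes, represented by 12 probes. No probe of this kind carried the symbol Gimap3, which was not analysed here. The family was singled out with the difference between the arrays already known, so all its values describe these arrays and none was tested.

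Gimap proteins share a guanine nucleotide-binding domain related to that of the septins, and several are anchored in the membranes of intracellular organelles. They are best known from lymphocytes, where members of the family maintain cell survival. Loss of Gimap5 depletes T cells in rats and mice, and mice without functional Gimap5 also lose hematopoietic stem cells (HSCs). Gimap1 is required in mice for the survival of mature T and B cells. The genes lie side by side in 1 chromosomal cluster.

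Illumina bead arrays were used to profile RNA of sorted mouse hematopoietic stem and progenitor cells. The sort took Flt3-low LSK cells, which lack lineage markers, carry Sca1 and c-Kit and include the HSCs. One sample was labelled control and the other had the genotype written CA/CA, in a series on transgenic mice with permanently active IKK2 in their HSCs; IKK2 is a kinase upstream of canonical NF-kB signalling. The labels do not give the transgene's promoter or a Cre driver, the strain, the age or the number of mice pooled, nor say whether the control carried any allele in common with CA/CA. Because each group had a single array (1 per group), no value has a replicate error or a p-value.

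Each array carried 45281 probes, with a median normalized signal of 86.15 on both. Background was not subtracted from these signals and lay near 81.72 units. A probe was taken as above background at 92.00 units or more, and 37.0% of probes passed on each array. Genes above this floor on both arrays numbered 8500. Kit, the receptor used in the sort, read 970 units in control cells and 677 in CA/CA cells, and its 2 probes above the floor differed by -0.58 and 0.21 on the log2 scale. Flt3 was below the floor on both arrays, and the sort marker gene Ly6a had no probe of 1 symbol. Among 19 T cell marker genes with a probe, 9 were below the floor on both arrays. That is near the share of all genes, of which 10118 of 19057 with a probe were above it on at least 1 array.

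The upstream sequences of 4 members are shown to set Gimap6 and Gimap1, which differed strongly between the arrays, beside Gimap7 and Gimap9, which differed little. Each is the stretch of 250 bases that ends at the base before the annotated transcript start, written 5′ to 3′ on the gene's own strand, from the RefSeq promoter table of build GRCm38.p6. Capitals mark core letters of ETS-family sites, which are GGAAGT in the first form searched and CAGGAA in the second, and those of RUNX sites, which are TGTGGT, each on either strand.
Gimap6, chr6:48708245-48708494, minus strand: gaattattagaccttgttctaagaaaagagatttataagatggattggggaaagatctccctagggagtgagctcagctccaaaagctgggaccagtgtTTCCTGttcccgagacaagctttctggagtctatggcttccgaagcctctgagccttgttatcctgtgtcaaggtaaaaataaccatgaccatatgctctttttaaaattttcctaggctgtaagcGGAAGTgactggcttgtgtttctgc
Gimap1, chr6:48738797-48739046, plus strand: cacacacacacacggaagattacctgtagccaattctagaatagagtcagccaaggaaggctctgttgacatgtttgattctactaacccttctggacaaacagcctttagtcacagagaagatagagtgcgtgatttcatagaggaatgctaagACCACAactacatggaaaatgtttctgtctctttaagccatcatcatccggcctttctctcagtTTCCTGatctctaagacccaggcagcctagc
Gimap7, chr6:48718371-48718620, plus strand: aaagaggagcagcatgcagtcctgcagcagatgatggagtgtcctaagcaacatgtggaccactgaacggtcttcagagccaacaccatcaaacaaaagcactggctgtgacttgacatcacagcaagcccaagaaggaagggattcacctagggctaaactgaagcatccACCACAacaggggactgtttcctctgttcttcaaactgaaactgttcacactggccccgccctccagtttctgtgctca
Gimap9, chr6:48675885-48676134, plus strand: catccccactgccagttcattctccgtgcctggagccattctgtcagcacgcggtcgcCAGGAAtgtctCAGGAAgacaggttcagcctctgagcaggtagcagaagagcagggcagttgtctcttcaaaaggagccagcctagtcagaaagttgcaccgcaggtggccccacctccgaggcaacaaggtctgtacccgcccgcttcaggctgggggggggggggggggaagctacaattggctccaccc

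ETS and RUNX proteins are transcription factors of blood cells, and these letters are short enough to occur often. All 8 Gimap genes matched the promoter table, with 9 windows, as Gimap8 has 2 annotated starts. GGAAGT was found in the windows of Gimap5 and Gimap6, or 2 of 9, against 19.7% of all 32851 windows of the same length. CAGGAA was found in 5 of 9, those of Gimap1, Gimap3, Gimap5, Gimap6 and Gimap9, against 25.7% of all windows. The second form overlaps the first in Gimap5. The RUNX letters TGTGGT were found in 3 of 9, those of Gimap1, Gimap4 and Gimap7, against 14.0% of all windows. The letters AGATAA of GATA factor sites were in 0 of 9 windows, against 9.99% of all windows. The letters GGGANTT, the first part of many NF-kB sites, were also in 0 of 9, against 14.4% of all windows. No searched motif divided the members with large differences from those with small ones: CAGGAA was in Gimap6 and Gimap1 and also in Gimap9, and TGTGGT was in Gimap1 and also in Gimap7. GGAAGT was in Gimap6 and absent from Gimap7 and Gimap9, but also absent from Gimap1 and Gimap8. Gimap8 held none of the searched letters.

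Gimap6, Gimap8 and Gimap1 had lower signals in CA/CA than in the control, Gimap5 had a lower signal that reached background, and Gimap7 and Gimap9 were slightly lower. Differences are given as log2(signal + 16), CA/CA minus control, so that a value of -1 is a 2-fold lower signal on that scale. The background still contained in both signals makes these differences smaller than the change in the specific signal, most of all for dim probes. Among the 6 members that passed the floor on both arrays, 3 had a signal at least 2-fold lower, where 1.87% of the 8500 genes were, and 0 were at least 2-fold higher, where 1.31% of genes were. The median of the 6 was -1.04, against 0.01 for all 8500 genes. These counts restate the contrast by which the family was noticed and carry no weight of their own.

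**Figure D1:**
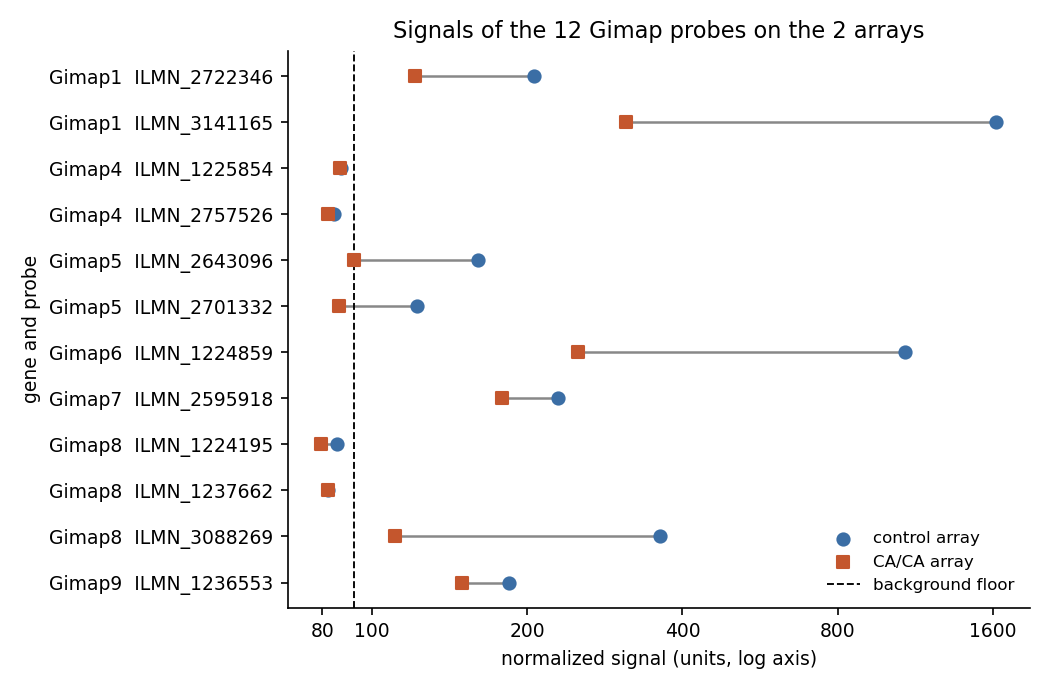
Normalized signal of each of the 12 Gimap probes on the control array (blue circles) and on the CA/CA array (orange squares), on a log axis, 1 array per group and no error bars. The dashed line is the background floor of 92.00 units. In the control 8 probes were above it, and 7 of them were above it on both arrays. All 8 had a lower signal in CA/CA, which restates the contrast by which the family was noticed.

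Gimap6 had the largest difference of the family. In lymphocytes its protein joins the autophagy machinery through Gabarapl2, a member of the Atg8 family. Its 1 probe, ILMN_1224859, read 1083 units in control cells and 250.3 in CA/CA cells, a log2 difference of -2.04, or 4.13-fold lower. Both signals were well above the floor. Among the 8500 genes, 11 had a more negative difference.

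Gimap1 encodes a membrane-anchored member located at the Golgi apparatus. Its 2 probes were both lower in CA/CA but by unequal amounts. Probe ILMN_3141165 read 1624 units in control cells and 311 in CA/CA cells, a log2 difference of -2.33. Probe ILMN_2722346 read 206 units in control cells and 121 in CA/CA cells, a log2 difference of -0.69. The annotation assigns both probes to the same RefSeq transcript, and the gap between them was larger than the SD of 0.24 between probes of 1 gene over 3861 genes. Their mean, the value used for the gene, was -1.51, with 40 genes more negative.

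Gimap8 encodes the largest protein of the family, which carries several GTPase domains in a row. Probe ILMN_3088269 read 361 units in control cells and 111 in CA/CA cells, a log2 difference of -1.58, with 32 genes more negative. Neither of the other 2 Gimap8 probes passed the floor in either sample, ILMN_1224195 reading 85.38 and 79.66 units and ILMN_1237662 reading 81.98 and 81.88 units, control first. The difference of Gimap8 therefore rests on 1 of its 3 probes. Counted over all 3 probes its mean difference was -0.55.

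Gimap5 encodes a membrane-anchored protein of lysosomes and related compartments. Probe ILMN_2643096 read 160 units in control cells and 92.09 in CA/CA cells, only just above the floor of 92.00, a log2 difference of -0.71. Probe ILMN_2701332 read 122 units in control cells and 86.19 in CA/CA cells, which is under the floor, so that it was at least 1.28-fold lower. Both probes were above background in the control and at or near it in CA/CA. The mean over both probes in CA/CA, 89.14 units, is itself under the floor, so that the mean difference of -0.57 is limited by it. Gimap5 is a close relative of Gimap3, and whether its probes also bind Gimap3 transcripts was not tested.

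Gimap7 and Gimap9 were within 2-fold. Human GIMAP7 is a soluble GTPase that is activated by pairing with itself or with another family member. The Gimap7 probe ILMN_2595918 read 230 units in control cells and 179 in CA/CA cells, a log2 difference of -0.34, with 1189 genes more negative. The Gimap9 probe ILMN_1236553 read 184 units in control cells and 149 in CA/CA cells, a log2 difference of -0.28, with 1485 genes more negative. Both signals stayed well above the floor on both arrays, so these small differences were not set by it. They were close to the SD of 0.24 between probes of 1 gene.

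Gimap4, whose protein acts in T cell death and cytokine release, was not measurable. Probe ILMN_1225854 read 87.05 units in control cells and 86.61 in CA/CA cells, and probe ILMN_2757526 read 84.15 and 82.20, all below the floor. No difference is given for it.

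**Figure D2:**
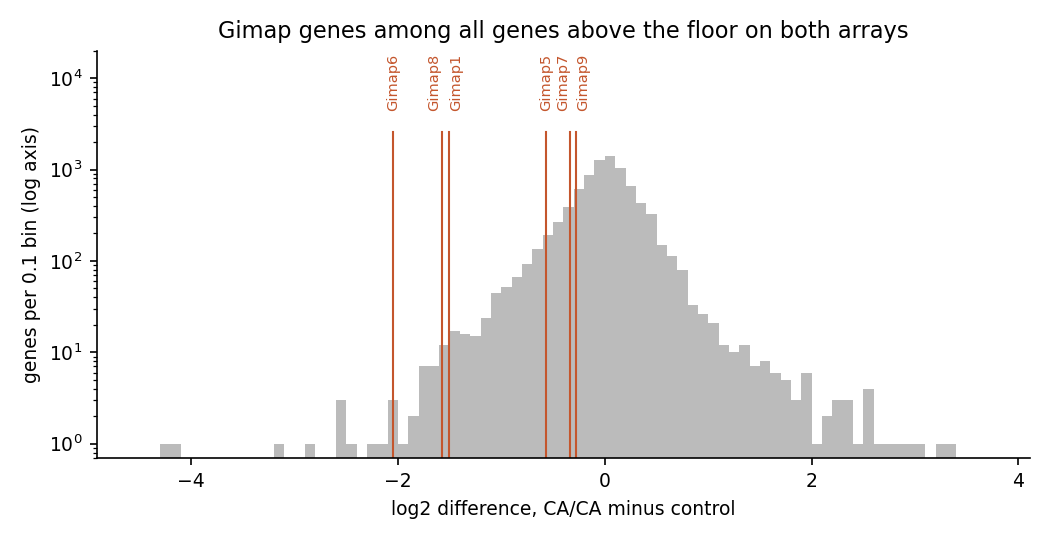
Histogram of the log2 difference, CA/CA minus control, of the 8500 genes above the floor on both arrays, with the number of genes on a log axis and the 6 measured Gimap genes as orange lines. Gimap6, Gimap8 and Gimap1 lie in the far lower tail, and Gimap5, Gimap7 and Gimap9 between -0.57 and -0.28 on the lower flank of the main peak.

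At a threshold of 1.5-fold the 3 lower members were again Gimap6, Gimap8 and Gimap1, where 6.31% of genes passed, and 0 were higher, where 4.35% passed. At 3-fold only Gimap6 passed, where 0.365% of genes did, and 0 members were higher, where 0.482% of genes were. Normexp correction, which estimates and removes the background, widened the differences. After it Gimap8 was at -2.55, Gimap6 at -2.42, Gimap1 at -1.94 and Gimap5 at -1.42, so that 4 of the 6 members were at least 2-fold lower, where 4.68% of genes were. Gimap7 and Gimap9 were at -0.51 and -0.47 after the same correction and stayed within 2-fold. The order of Gimap6 and Gimap8 was exchanged by the correction.

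**Figure D3:**
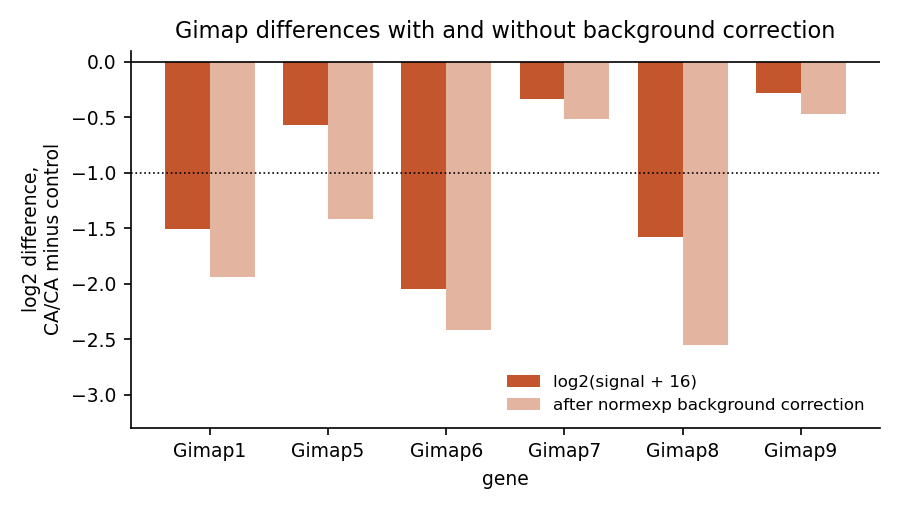
Log2 difference, CA/CA minus control, of the 6 measured Gimap genes on the log2(signal + 16) scale (dark bars) and after normexp background correction (light bars), with the dotted line at 2-fold lower. Gimap5 moves from -0.57 to -1.42, while Gimap7 and Gimap9 stay above the line in both.

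Along the chromosome, members with small differences lay next to members with large ones. In RefSeq order the cluster runs Gimap8, Gimap9, Gimap4, Gimap6, Gimap7, Gimap1, Gimap5 and Gimap3, with no other protein-coding gene between them. Gimap9, at -0.28, lies between Gimap8, at -1.58, and Gimap4, which was below the floor. Gimap7, at -0.34, lies between Gimap6, at -2.04, and Gimap1, at -1.51. Gimap5, at -0.57 with a CA/CA signal limited by the floor, lies between Gimap1 and Gimap3, which had no probe of 1 symbol. After normexp background correction Gimap5 was at -1.42 and Gimap1 at -1.94. The small differences of Gimap7 and Gimap9 were thus found next to large ones within the cluster.

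Of the 20 nearest protein-coding genes, 10 on each side of the cluster, 18 had a probe and 9 were above the floor on both arrays. Of these 9, 1 was at least 2-fold lower and 0 at least 2-fold higher, against 1.87% and 1.31% of all 8500 genes. Below 0 were 8 of the 9, against 48.6% of all genes, and the median of the 9 was -0.33. The 1 gene beyond 2-fold was Gm5111, which read 390 units in control cells and 120 in CA/CA cells, a log2 difference of -1.58. Repin1, a zinc finger gene, was at -0.60 with both probes lower. On the other side Tmem176b and Tmem176a, which encode related membrane proteins of immune cells, were at -0.66 and -0.42. Tmem176b read 759 units in control cells and 475 in CA/CA cells, and the 2 Tmem176a probes differed by -0.79 and -0.06. Zfp467, Zfp746, Rarres2 and Krba1 were at -0.33, -0.23, -0.07 and -0.04, and Igf2bp3 at 0.00. Aoc1, an amine oxidase gene, went the other way: it passed the floor only in CA/CA, reading 214 units, at least 2.13-fold higher. Gpnmb reached 92.42 in CA/CA, barely above the floor.

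**Figure D4:**
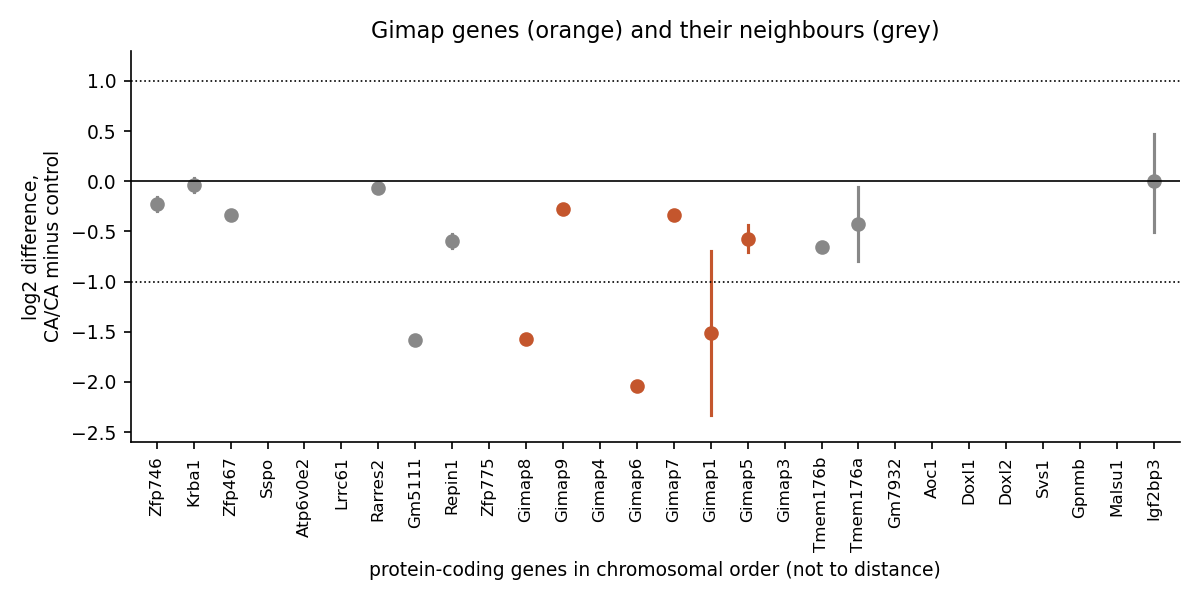
Log2 difference, CA/CA minus control, of the Gimap genes (orange) and the 10 protein-coding genes on each side (grey) in chromosomal order, not to distance; points are means over probes above the floor and bars span the lowest to the highest probe. Names without a point were not above the floor on both arrays or had no probe of 1 symbol; Gimap7 and Gimap9 sit near 0 beside Gimap6, Gimap8 and Gimap1.

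Genes of mature T cells, the cells in which the family is best known, were not lower on balance. Of 22 T cell markers, 7 were above the floor on both arrays, and 0 of them differed 2-fold in either direction. That is near the shares of all 8500 genes, 1.87% at least 2-fold lower and 1.31% higher. Of the 7 markers, 1 was below 0, against 48.6% of all genes, and their median was 0.31. That median was 0.69 after normexp, 0.10 with the floor at the mode plus 2 SD and 0.03 without a floor. Cd3d and Cd3g, subunits of the T cell receptor complex, read 102 and 96.70 units in control cells and 154 and 124 in CA/CA cells. Cd6 and Ubash3a, a surface receptor and a signalling inhibitor of T cells, differed by 0.47 and 0.41, and Cd3e passed the floor only in CA/CA, reading 120 units. Most of these signals were dim. The summed signal of the 10 T cell markers above the floor on at least 1 array was 1875 in the control and 1863 in CA/CA. Cd8b1, chosen after its values were seen, made up much of that sum, reading 959 units in control cells and 745 in CA/CA cells. Its 2 probes above the floor went in opposite directions, at -0.45 and 0.73, so that their positive mean, 0.14, is uncertain.

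Few cytotoxic and B cell markers passed the floor on both arrays. They were 2 of 11 cytotoxic and 2 of 9 B cell markers with a probe, against 8500 of all 19057 genes. Of 12 natural killer and cytotoxic cell markers, Nkg7 and Prf1 passed it on both arrays. Klrb1c was above it in the control only and Klrd1, Klrk1 and Il2rb in CA/CA only, against 831 and 787 of all genes. Klrd1, a receptor of natural killer cells, read 116 units in CA/CA cells and was at least 1.22-fold higher. Nkg7, a cytotoxic granule protein gene, read 4190 units in control cells and 1055 in CA/CA cells, a log2 difference of -1.97, while Prf1, the pore-forming perforin gene, was at -0.14. Of 12 mature B cell markers, only Cd79b, a B cell receptor subunit, and Fcrla were above it on both arrays, at -1.76 and -0.35. The summed signal was 4710 units in the control and 1594 in CA/CA for the cytotoxic list and 1419 and 499.7 for the B cell list, mostly through Nkg7 and Cd79b. The part of such cells in the Gimap values was not tested. In RNA from a sorted population, fewer cells of a type and less RNA per cell cannot be told apart.

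Of 13 genes of early lymphoid priming with a signal over the floor in both samples, 2 were at least 2-fold lower and 0 at least 2-fold higher, against 1.87% and 1.31% of all 8500 genes, and 11 were within 2-fold. Below 0 were 12, against 48.6% of all genes, and the median was -0.47. Dntt, which encodes the terminal transferase of receptor gene rearrangement, read 436 units in control cells and 132 in CA/CA cells, a log2 difference of -1.61. Cd27, a costimulatory receptor also found on progenitors, was at -1.09 over 3 probes that ranged from -1.71 to -0.48. Ebf1 and Sox4, transcription factors of early B cell development, were at -0.92 and -0.79, with Ebf1 at a mean of 91.30 in CA/CA cells, just under the floor, and the 2 probes of Sox4 at -1.54 and -0.05. Rag1, a recombinase gene, was above the floor only in the control, at least 1.51-fold lower in CA/CA.

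Endothelial cells also express Gimap genes. Of 21 endothelial markers, 7 were above the floor on both arrays, and 0 of these differed 2-fold, where 1.87% of all 8500 genes were at least 2-fold lower. All 7 were below 0, where 48.6% of genes were, and their median was -0.51. A further 9 were above the floor in the control only and 0 in CA/CA only. Of the 10118 genes above it on at least 1 array, 831 were so in the control only and 787 in CA/CA only. Robo4, Esam and Emcn, surface proteins that HSCs share with endothelium, read 595, 439 and 309 units in control cells and less than the floor in CA/CA cells, at least 5.66-fold, 4.21-fold and 3.01-fold lower. Egfl7, Pecam1, Plvap and Ramp2 were at -0.60, -0.52, -0.51 and -0.51. Of defining endothelial genes, Kdr was among 5 list members below the floor on both arrays. Cdh5 had a signal of 93.33 in the control, close to the floor, and 81.37 in CA/CA. Other list members were more clearly above the floor in the control. Vwf, Mmrn2, Tek, Cldn5 and Tie1 read 148, 137, 134, 130 and 119 units there and 105, 81.82, 100, 82.27 and 84.52 in CA/CA. Summed over the list, the signal was 4402 units for control cells and 2243 for CA/CA cells. Most of the control sum came from Egfl7, which read 1290 units there and 678 in CA/CA, and from Robo4, Esam and Emcn. The part of this signal in the Gimap values was not tested.

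Markers of HSCs lay on both sides of 0, with more of them below it. Of the 12 with a signal over the floor in both samples, 2 were at least 2-fold lower and 1 at least 2-fold higher, against 1.87% and 1.31% of all 8500 genes. Below 0 were 8 of the 12, against 48.6% of all genes, and the median of the 12 was -0.12. A further 4 were above the floor in the control only and 0 in CA/CA only, against 831 and 787 of all genes. Among the 4, Ndn, the growth suppressor necdin, read 233 units in control cells and was at least 2.31-fold lower. Meis1, a homeobox factor of HSCs, and Cdkn1c, the cell cycle inhibitor p57, were at -1.60 and -1.58. Cd34 was at -0.84. Thy1 was higher, reading 232 units in control cells and 657 in CA/CA cells.

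**Figure D5:**
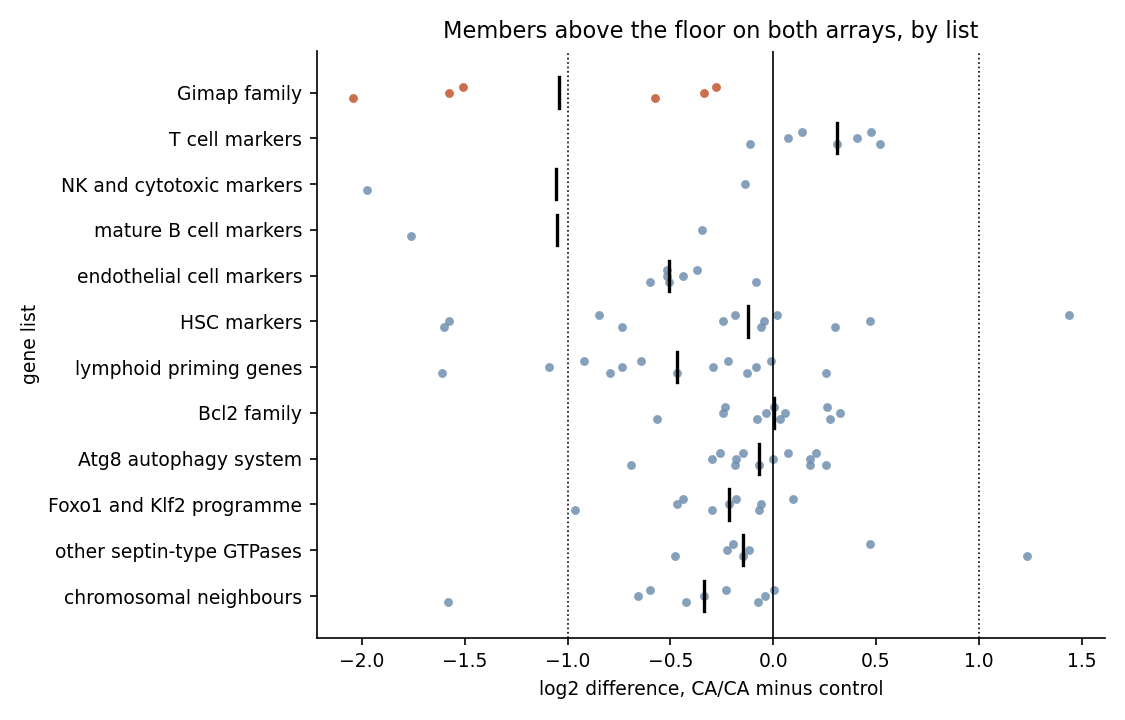
Log2 difference, CA/CA minus control, of each gene above the floor on both arrays (points; vertical offsets within a row carry no meaning), by gene list, with the list median as a black bar and dotted lines at 2-fold. T cell markers centre on 0.31, lymphoid priming and endothelial genes on -0.47 and -0.51, and the 6 Gimap genes on -1.04.

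Genes of processes in which Gimap proteins act, those of the Bcl2 family and of Atg8 autophagy, had medians close to 0. That 0 of them differed 2-fold is near the shares of all 8500 genes, 1.87% lower and 1.31% higher. Proteins of the Bcl2 family, which control cell death and with which Gimap proteins have been reported to interact, had a median of 0.00 over 11 genes, and 0 of these differed 2-fold. The farthest from 0 was Bid, a death-promoting member, at -0.56. Bcl2a1d, Bcl2a1b and Bak1 were at 0.33, 0.27 and 0.26, and the first pair are near-identical copies that the array may not separate. The Atg8 autophagy list had a median of -0.07 over 13 genes and 0 beyond 2-fold. In it Gabarap, an Atg8 protein, read 1377 units in control cells and 845 in CA/CA cells, a log2 difference of -0.69, and Ulk1, Gabarapl1 and Becn1 were at -0.30, -0.26 and 0.26. Gabarapl2, named above as the partner of Gimap6, was below the floor on both arrays.

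In the list of the Foxo1 and Klf2 programme, which maintains resting lymphocytes, 0 of 9 genes differed 2-fold. That is near the shares of all 8500 genes, 1.87% at least 2-fold lower and 1.31% higher. Below 0 were 8 of the 9, against 48.6% of all genes, and the median was -0.21. After normexp 2 were at least 2-fold lower, against 4.68% of all genes, and the median was -0.51. Foxo1, a transcription factor of quiescence, was nearest to the threshold, reading 210 units in control cells and 99.85 in CA/CA cells, a log2 difference of -0.96. Il7r, the interleukin 7 receptor, was at -0.47, Btg1 at -0.44 and Klf2 at -0.29. The other septin-type GTPases, the structural relatives of the family, had a median of -0.15 over 7 genes. Of these 0 were at least 2-fold lower and 1 at least 2-fold higher, against 1.87% and 1.31% of all genes. The 1 was Septin8, reading 173 units in control cells and 429 in CA/CA cells. Septin1, Septin2 and Septin9 were at -0.48, 0.47 and -0.23.

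The 5 other genes whose pair of log2 signals lay nearest to that of Gimap6 over the 2 arrays were Mfge8, Cd79b, Cd63, Lpar6 and Cd93, at distances of 0.30 to 0.37. With 2 arrays this likeness rests on 2 points per gene. Mfge8 read 1179 units in control cells and 342 in CA/CA cells, and Cd63 read 1331 and 259. The log2 differences of the 5 genes ranged from -1.86 for Cd63 to -1.55 for Lpar6 and Cd93.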

How the data were processed

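The authors' deposited values were normalized signal intensity values of 45281 probes per array, 1 column per sample. BeadStudio is named in the submitters' processing notes; no version, setting or normalization is stated for it. Sorted, the 2 columns lay within 0.0022 of each other in log2 units, the pattern of quantile normalization. The deposited non-normalized table has 4 value columns with headings that match no sample label, and none was used. Of the probes, 34885 had 1 gene symbol in the platform annotation of 2016, 18 had several and 10378 had none.

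The background mode, 81.72 units, was the centre of the narrowest range with 25% of the values. The floor was the mode plus 4 times 2.57, the root mean square deviation of lower values from it. Probes of a gene above the floor on at least 1 array were averaged, and differences are on the log2(signal + 16) scale. Counts and medians cover genes above the floor on both arrays. A gene above it on 1 array only is given as an at-least fold on the same scale. Precision is limited by the number of arrays. The family, the 11 gene lists and the naming rule (every Gimap probe, up to 4 members per list with the largest differences, neighbours above the floor, and the 5 genes nearest to Gimap6) were chosen with earlier results of these data known. List members above the floor on 1 array were named by their bound. Kit, Flt3, Kdr, Cdh5, Vwf, Mmrn2, Tek, Cldn5 and Tie1 were named as checks of the cell type, and Gabarapl2 as the partner of Gimap6. Gene order came from RefSeq, GRCm38.p6. Coordinates are given only for the upstream sequences shown, on the same build. Those of the genes are left out, since no build is named for the arrays. The steps were tested on simulated data with changes placed in brighter genes only, a range that leaves out Gimap5, Gimap7 and Gimap9. Python 3.11.15, numpy 2.4.6, pandas 2.3.3, matplotlib 3.10.9 and, for normexp, limma 3.58.1 in R 4.3.3 were used. Alternatives were no offset, an offset of 50, normexp, other floors, no floor, the brightest probe, floored dim signals and other folds.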

Additional observations from a re-analysis of the deposited data

How the results depend on the processing

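No paired analysis was possible because each group had 1 array, and for the same reason no replicate could be left out. Every Gimap gene with a value stayed below 0 under each alternative tried. The family median, -1.04, was -1.51 with the floor at the mode plus 8 SD, -1.68 after normexp and -0.55 without a floor. The first rests on 5 members, because Gimap5 was then above the floor in the control only, and the last includes Gimap4. The number of members at least 2-fold lower was 3, where 1.87% of all genes were. It was 1 at a 3-fold threshold, 2 without a floor and 4 after normexp, where the share of all genes was 0.365%, 0.703% and 4.68%. At the other settings it was 3, where that share ran from 1.31% with an offset of 50 to 6.31% at 1.5-fold. Gimap1 was at -2.33 with its brightest probe, and Gimap8 at -0.55 without a floor. Of all genes, 159 passed 2-fold downward and 111 upward, against 398 and 231 after normexp. The median of the natural killer and cytotoxic list, -1.06 over 2 genes, was 0.0025 without a floor. The lymphoid priming list had 2 members at least 2-fold lower, 6 after normexp, 5 with the brightest probe, 4 at the higher floor and 1 with an offset of 50, where the share of all genes was 1.87%, 4.68%, 2.70%, 2.18% and 1.31%. The endothelial list had 0, but 1 after normexp, 1 with the floor at the mode plus 2 SD and 2 without a floor. At these settings the share of all genes was 4.68%, 1.48% and 0.703%. The Foxo1 and Klf2 list had 0, but 2 after normexp and 1 without an offset, where the share of all genes was 4.68% and 2.26%. Dim probes limit Gimap4 and Gimap5.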
